A study of Mus musculus with 4 samples.

Results

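The regions described here are the accessible regions that lie nearest to an olfactory or vomeronasal receptor gene. They were chosen by gene name alone: names starting with Or followed by a family number, a letter and a number, the older Olfr names, and the names Vmn1r and Vmn2r with a number. This gave 238 of 80929 regions and 179 of 26614 gene names. Olfactory receptors of the Or type made up 185 regions at 143 genes, Vmn1r receptors 24 regions at 18 genes and Vmn2r receptors 29 regions at 18 genes. No region carried an Olfr name. Open chromatin was measured by ATAC-seq, an assay that reads where a transposase can cut DNA, in RAW264.7 cells, a macrophage-like line from mouse. There were 2 libraries titled CuNZ@Gel, named in the series title as a sprayable nanozyme hydrogel, and 2 libraries titled Gel, all taken at 48 h. The treatment text names CuNZ@Gel for every sample, so the groups rest on the titles. Whether the replicates came from separate cultures is not stated, and p-values therefore reflect the spread of 4 libraries, part of which may be technical.

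Olfactory receptors are odorant-sensing G protein-coupled receptors of the nasal epithelium, and each sensory neuron expresses a single allele of a single receptor. Vmn1r and Vmn2r receptors sense pheromones and peptides in the vomeronasal organ. The genes stand in long tandem arrays that are packed into compact, repressive chromatin in most other cell types. These loci were therefore chosen to describe closed or background chromatin of a macrophage. Each region described was nevertheless called as accessible, and the 10 strongest had a peak in all 4 libraries, so that name does not hold for every region. Expression was not measured. The arrays hold near-identical copies, and how reads that map to several copies were handled is not given in the sources used here, so a value at a single receptor may hold reads of a close relative.

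The 2 CuNZ@Gel libraries held 7440951 and 10236690 reads in regions, against 18843984 and 17915210 in the 2 Gel libraries. Genome background pileup is a value that the peak caller takes from all reads it used. It is not given for these libraries and was inferred from the steps between the peak folds. For each unit of inferred background pileup there were 6.37 and 8.53 region reads in CuNZ@Gel and 18.78 and 18.63 in Gel, each times 1000000. Depth and enrichment therefore run along the groups, and their part in any difference between CuNZ@Gel and Gel cannot be told apart from that of the treatment. Of 16 macrophage markers, 15 had a region, and their summed level was 1333 and 1361 RPM (reads per 1000000 effective reads) in CuNZ@Gel against 1794 and 1855 RPM in Gel. Of 11 olfactory sensory neuron markers, 9 had a region, with sums of 60.6 and 60.4 RPM in CuNZ@Gel and 71.2 and 62.9 RPM in Gel. The markers Ncam1 and Lhx2 had none, while the defining marker Omp held 7.76 and 8.80 RPM in CuNZ@Gel and 18.7 and 17.02 RPM in Gel. Gng13 went the other way, with 5.58 and 2.76 RPM in CuNZ@Gel and 2.51 and 1.55 RPM in Gel. In the gene comparison given below, 1 of the 9 was lower (Omp) and 1 higher (Gng13). Among all genes 36.1% were lower and 20.5% higher. The part of these markers in the results was not tested. Fibroblast markers, 3 of 6 with a region, summed to 43.8 and 41.9 RPM in CuNZ@Gel and 40.4 and 38.7 RPM in Gel, and epithelial markers, 3 of 4, to 12.4 and 17.5 RPM in CuNZ@Gel and 12.1 and 12.9 RPM in Gel.

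Of the 36 vomeronasal receptor genes with a region, 30 had a promoter sequence in RefSeq (GRCm38.p6), from 250 bases before to 50 bases after the gene's start. The promoters of the genes nearest to the 3 vomeronasal regions with the largest rises in CuNZ@Gel are shown, 5′ to 3′, as examples of the DNA at these loci. Capitals mark a match to any of 5 motifs searched on both strands. Vmn2r90 is at chr17:17703691-17703990, Vmn2r115 at chr17:23343727-23344026 and Vmn2r26 at chr6:124024508-124024807, each on the + strand of GRCm38.p6.
Vmn2r90: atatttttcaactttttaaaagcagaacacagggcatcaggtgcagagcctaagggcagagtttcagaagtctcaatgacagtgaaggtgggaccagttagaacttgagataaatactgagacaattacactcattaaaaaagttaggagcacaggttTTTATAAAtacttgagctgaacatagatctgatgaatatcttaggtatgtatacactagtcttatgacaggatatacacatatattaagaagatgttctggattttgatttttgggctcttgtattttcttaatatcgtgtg
Vmn2r115: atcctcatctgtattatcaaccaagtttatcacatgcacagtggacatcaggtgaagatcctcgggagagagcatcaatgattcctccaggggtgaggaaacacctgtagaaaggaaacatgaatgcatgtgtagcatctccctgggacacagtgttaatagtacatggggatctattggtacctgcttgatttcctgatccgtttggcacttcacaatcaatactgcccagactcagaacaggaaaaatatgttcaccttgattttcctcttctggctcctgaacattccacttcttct
Vmn2r26: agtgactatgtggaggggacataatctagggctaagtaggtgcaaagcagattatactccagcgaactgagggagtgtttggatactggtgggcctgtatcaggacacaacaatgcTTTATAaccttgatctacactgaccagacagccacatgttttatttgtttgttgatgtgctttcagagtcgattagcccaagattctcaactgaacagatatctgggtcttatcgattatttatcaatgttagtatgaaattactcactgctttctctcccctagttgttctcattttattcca
The accessible regions have coordinates on GRCm39 only, so they cannot be placed against these promoters, and no sequence of the regions themselves is shown.

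All capitals in the 3 promoters are TATA boxes (TATAAA): overlapping matches on either strand in Vmn2r90, 1 in Vmn2r26 and none in Vmn2r115. The TATA box was found in 43.3% of the 30 promoters and in 13.6% of all 32851 promoters of the same length. The core bound by PU.1 (GGAAGT), the leading transcription factor of macrophages, was found in 20% of the 30 and 23.8% of all promoters. The AP-1 site (TGANTCA) was found in 10% and 7.81%, and the LHX homeodomain core (TAATTA), known from olfactory receptor promoters, in 13.3% and 5.29%. None of the 30 held the Ebf palindrome (TCCC and GGGA, 2 bases apart), against 0.904% of all promoters. The 30 promoters were richer in A and T, with a median of 62.2% against 47.3% of bases in all promoters, and the letters of a motif were not weighed against that composition. The 322 promoters of all Vmn1r and Vmn2r genes in the table, with or without a region, had a median of 63.3% A and T. Among them 35.4% held the TATA box, 36.3% the PU.1 core, 23% the AP-1 site and 10.9% the LHX core.

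Few vomeronasal genes had an accessible region at all. Among protein-coding genes of the RefSeq table, 18 of 230 Vmn1r genes (7.83%) and 18 of 123 Vmn2r genes (14.6%) were the nearest gene of a region, against 15120 of 21900 protein-coding genes (69%). The same share could not be computed for olfactory receptors, because none of the 143 Or names in the files pairs with a name in that table. Of the 4 olfactory receptors with described roles outside the nose that were looked up in any case, Or6a2, Or51e2, Or51e1 and Or10j5, none was the nearest gene of any region. Most receptor genes had 1 region (135 of 179), 32 had 2, 9 had 3 and 3 had 4.

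The regions lay on 19 chromosomes, with 36 on chromosome 7, 29 on chromosome 9 and 28 on chromosome 17. Put in order along the genome, they formed 87 runs of consecutive receptor regions with no other gene's region between them, of which 31 were a single region and 12 held at least 5. The longest run had 21 regions over 1.38 Mb of chromosome 9 (Or8b, Or8d, Or8g and Or10d genes), or 15.3 regions per Mb, against 31.5 per Mb over the whole genome. The chromosome 2 run from Or5g27 to Or4c10 had 12 regions over 4.36 Mb, or 2.75 per Mb. Some short runs next to other genes were denser: 7 regions within 0.0555 Mb beside Nlrp3, the inflammasome sensor gene, on chromosome 11, and 9 regions within 0.263 Mb beside the MHC class I-like gene H2-M3 on chromosome 17. The distance to the nearest other region had a median of 18648 bases for receptor regions and 5224 bases for all regions.

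Receptor regions were narrow and low. Their median width was 309 bases, against 485 bases for all regions. The median receptor region held 2.18 and 2.04 RPM in the CuNZ@Gel libraries and 1.69 and 1.58 RPM in the Gel libraries, while the median of all regions was 5.09 and 4.98 RPM in CuNZ@Gel and 4.20 and 4.21 RPM in Gel. By mean log2 level over the 4 libraries, 135 of the 238 lay under the value that 25% of all regions lie under, and 193 under the median of all regions. No reads were recovered at 1 and 5 receptor regions in the CuNZ@Gel libraries and at 22 and 16 in the Gel libraries. Per kilobase, the receptor regions as a whole held 10.2 and 9.82 RPM in CuNZ@Gel and 10.5 and 10.2 RPM in Gel, against 19.1 and 19.3 RPM for all regions in CuNZ@Gel and 23.3 and 23.5 RPM in Gel.

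**Figure D1:**
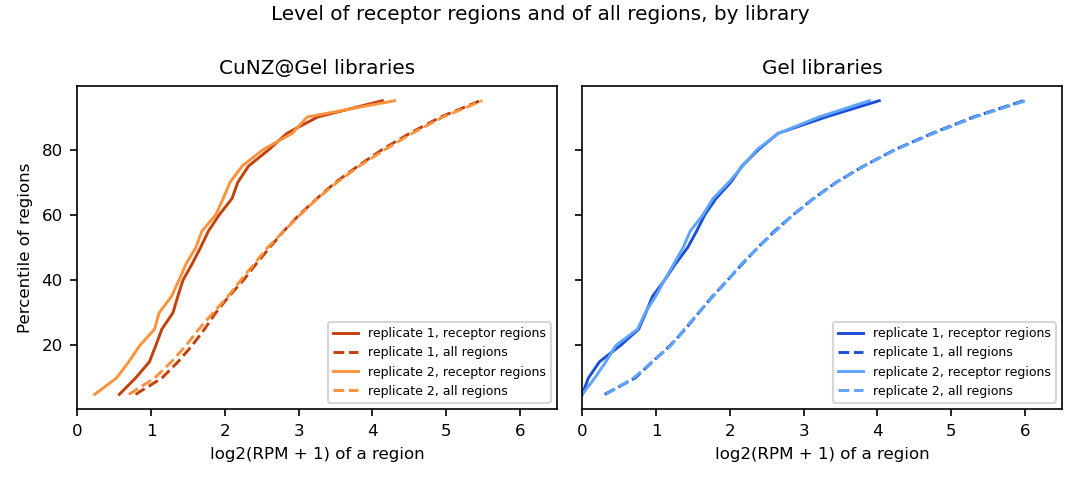
The percentile of regions (y axis) is plotted against level as log2(RPM + 1) (x axis) for the 238 receptor regions (solid lines) and all regions (dashed lines), with CuNZ@Gel libraries on the left and Gel libraries on the right. In all 4 libraries the receptor curve lies left of the curve of all regions, with medians of 2.18 and 2.04 RPM in CuNZ@Gel and 1.69 and 1.58 RPM in Gel.

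Peaks at receptor loci were mostly found in few libraries, and these shares are given without a test. A peak was present in all 4 libraries at 40 receptor regions (16.8%), against 39.6% of all regions. In a single library alone a peak was present at 126 receptor regions (52.9%), against 29.9% of all regions. Other tandem families were picked by name as likely silent in macrophages, with no measure of their expression. These (keratin-associated proteins, beta-defensins, taste and trace amine receptors, major urinary proteins and Pramel genes, 52 regions) had 23.1% with a peak in all 4 libraries. Potassium channel genes (267 regions) had 24.7% and ribosomal protein genes (206 regions), which every cell uses, had 52.4%. Median widths were 360.5, 402 and 633.5 bases in the same order.

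**Figure D2:**
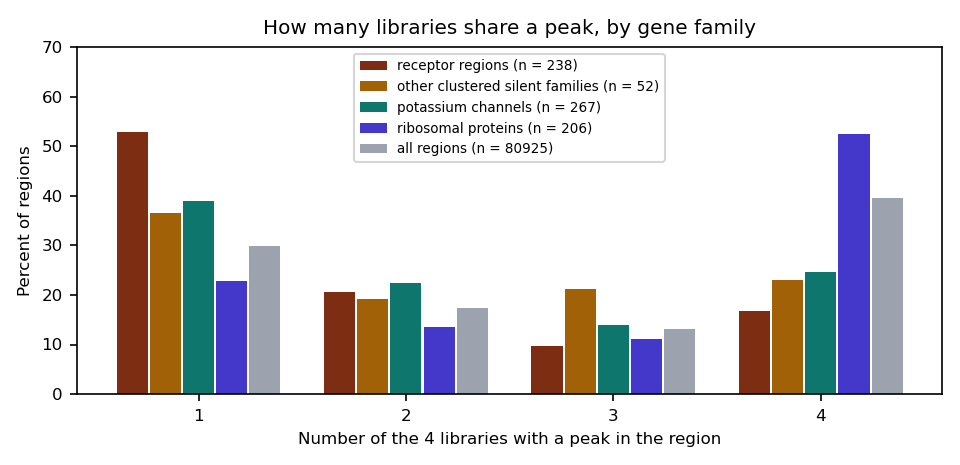
Bars give the percent of regions (y axis) with a peak in 1, 2, 3 or all 4 libraries (x axis) for receptor regions, 3 comparison families and all regions. Receptor regions have the tallest bar at 1 library (52.9%) and the shortest at 4 libraries (16.8%).

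The CuNZ@Gel libraries had peaks at 78 and 109 receptor regions and the Gel libraries at 139 and 127, or 93.5 ± 21.9 in CuNZ@Gel against 133 ± 8.5 in Gel (SD, n = 2 each). The peak lists as a whole were shorter in CuNZ@Gel too, with 42612 and 53273 peaks against 61757 and 59251 in Gel. With the same number of top peaks taken from each list, 78 and 66 receptor regions in CuNZ@Gel and 76 and 69 in Gel had a peak. Peaks were present in both CuNZ@Gel libraries and no Gel library at 5 receptor regions, and in both Gel libraries and no CuNZ@Gel library at 33. Over the 238 regions the log2 levels of the CuNZ@Gel pair correlated at Pearson's r = 0.875 and those of the Gel pair at 0.964, against 0.961 and 0.986 over all regions. These correlations describe regions that share libraries and depth, and are given with no p.

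For the comparison of CuNZ@Gel with Gel, a region was tested with limma if it held at least 10 reads at the median depth in at least 2 libraries and 15 reads in all. Of the 238 receptor regions 202 passed and 36 did not. Among the 202, 44 were higher in CuNZ@Gel and 20 lower at an adjusted p of 0.05 (Benjamini-Hochberg over all 77014 regions tested). That is 21.8% higher and 9.9% lower, against 21.2% higher and 21.9% lower among all regions. The other tandem families had 35.4% higher and 4.17% lower of 48 regions tested. Potassium channel genes had 26.8% higher and 12.6% lower of 246, and ribosomal protein genes 17.3% higher and 41.3% lower of 196. Few falls were thus not particular to receptor regions. With both directions together 31.7% of receptor regions were called, against 43.1% of all. A total of 21 receptor regions passed only through the CuNZ@Gel libraries and none only through the Gel libraries, and 18 of the 44 higher calls are among them. These had to differ to be tested, so the count of rises is a description and supports nothing. Among all regions 5.06% passed only through CuNZ@Gel and 0.178% only through Gel.

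The median change, CuNZ@Gel minus Gel on the log2(RPM + 1) scale, was 0.10 over the 202 regions and 0.16 over all 238, against 0.00 for all regions tested and 0.02 for all regions. It was 0.28 for the other tandem families, 0.14 for potassium channel genes and -0.20 for ribosomal protein genes. The groups did not overlap at 114 receptor regions (56.4%), against 68.3% of all regions. Another scaling moved the split of calls. Under cyclic loess, which takes out the trend of change with level, 26 receptor regions were higher and 23 lower, with 18.8% and 13.8% of all regions. There the receptor median was -0.12, below the median of all regions (-0.046). With libraries scaled to the background pileup, 15 were higher and 93 lower, with 4.85% and 60.6% of all regions. On that scale the median of all regions moved to -0.82 and that of receptor regions to -0.58. With totals alone 58 were higher and 12 lower, with 30% and 11.9% of all regions, and the medians were 0.27 for receptor regions and 0.22 for all. The sign of the receptor median thus differed between scalings.

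At the lowest and the highest levels the direction of receptor regions was that of all regions, and between them it varied. All regions tested were put in 5 equal bins by mean level. In the lowest bin, which held 95 of the 202 receptor regions, 24.2% of receptor regions were higher and 2.11% lower, against 25.3% and 1.21% of all regions in that bin. In the highest bin, which held 9 receptor regions, 0 were higher and 8 lower, against 7.51% higher and 71.3% lower among all regions. The median changes from the lowest to the highest bin were 0.22, 0.14, 0.00, -0.09 and -0.64 for receptor regions and 0.28, 0.17, 0.07, -0.08 and -0.49 for all regions. In 10 equal bins the course was less even. In bin 6 of 10 the median change was 0.33 over 13 receptor regions and 0.042 over all regions. In bin 8 of 10 it was 0.41 over 9 receptor regions and -0.14 over all regions. Bins 5 and 7 went the other way. In bin 5 of 10 the median was -0.17 over 21 receptor regions and 0.10 over all regions. In bin 7 of 10 it was -0.17 over 9 receptor regions and -0.032 over all regions. Limited to regions with a peak in at least 3 libraries, 13 of 63 receptor regions were higher and 13 lower, with 18.7% and 34.8% of all such regions. This limit was added after seeing the data.

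**Figure D3:**
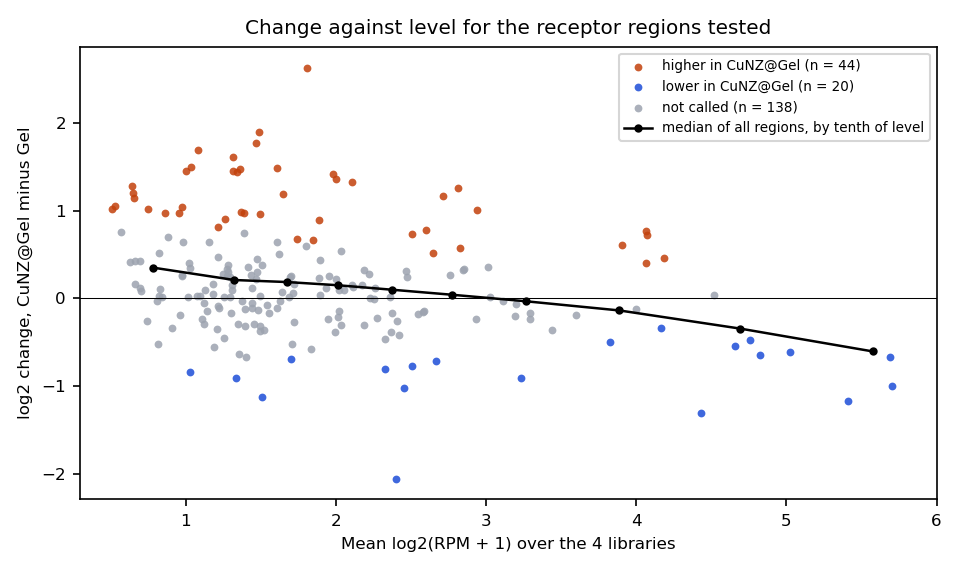
Each point is 1 of the 202 receptor regions tested, with the log2 change, CuNZ@Gel minus Gel (y axis), against the mean log2(RPM + 1) over the 4 libraries (x axis), coloured by call. The black line joins the median change of all regions in each of 10 equal bins of level and falls with level, from 0.35 to -0.60, and 8 of the 10 strongest receptor regions lie below 0.

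Receptor regions took 1059 and 1016 of each 1000000 region reads in the CuNZ@Gel libraries (exact 95% intervals 1036 to 1083 and 997 to 1036) and 901 and 868 in the Gel libraries (887 to 914 and 855 to 882). These intervals cover counting error only. The shares averaged 1038 ± 30.4 per 1000000 in CuNZ@Gel and 885 ± 22.9 in Gel (SD, n = 2 each), a ratio of 1.173. The 10 receptor regions with the highest mean level and the others differed in direction, with no test run on either sum. The 10 strongest took 274 ± 8.56 per 1000000 in CuNZ@Gel and 365 ± 8.98 in Gel, while the others took 764 ± 39 in CuNZ@Gel and 520 ± 13.9 in Gel.

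The strongest receptor region lay at Or8d23 on chromosome 9 (chr9:38860151-38860804 on GRCm39, 654 bases wide). It held 35.1 and 36.3 RPM in the CuNZ@Gel libraries and 74.0 and 71.3 RPM in the Gel libraries. Both CuNZ@Gel libraries were near 50% of either Gel library. The change was -1.0 with a standard error of 0.09 and an adjusted p of 1.59e-13 (limma). The authors' peak folds there were 6.83 and 6.74 in CuNZ@Gel and 7.90 and 6.96 in Gel.

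A neighbouring Or8d23 region (chr9:38863600-38864177) held 27.8 and 26.9 RPM in CuNZ@Gel and 66.1 and 59.3 RPM in Gel, a change of -1.17 ± 0.10 (SE, limma adjusted p 2.53e-14). Or8d23 had 4 regions in all. Another of them, at chr9:38858272-38858441, was higher in CuNZ@Gel, with 5.82 and 6.93 RPM against 2.86 and 4.02 RPM in Gel (change 0.74, limma adjusted p 0.0053), but on the background pileup scale its change was -0.12. Its adjusted p was 0.0607 without CuNZ@Gel replicate 2 and 0.149 without Gel replicate 1. Regions 1709 bases apart at the same receptor thus changed in opposite directions on the deposited scale.

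At Or9a4 on chromosome 6, 8640 bases from the nearest region of Clec5a, which encodes a myeloid lectin receptor, a pair of regions stood out. The region at chr6:40550311-40551168 held 37.7 and 42.3 RPM in CuNZ@Gel and 66.6 and 61.8 RPM in Gel. Its neighbour at chr6:40552829-40553576 held 19.8 and 23.9 RPM in CuNZ@Gel and 32.1 and 36.9 RPM in Gel. Both fell, by 0.67 and 0.64 on the log2 scale (limma adjusted p 1.96e-08 and 9.79e-06). Under cyclic loess the larger of the regions was not called (-0.15, adjusted p 0.20).

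The Or11i1 region (chr3:106739227-106739994), 41258 bases from the nearest region of Cd53, which encodes a leukocyte tetraspanin, held 11.6 and 13.9 RPM in CuNZ@Gel and 32.0 and 33.9 RPM in Gel. The change was -1.31 ± 0.13 (SE, limma adjusted p 3.83e-12). Every Gel value was more than 2 times every CuNZ@Gel value.

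The Or5b21 region (chr19:12810586-12811400) lay 7693 bases from the nearest region of Lpxn, which encodes the adhesion adaptor leupaxin. It held 23.4 and 27.3 RPM in CuNZ@Gel and 38.6 and 39.6 RPM in Gel, and fell by 0.61 (limma adjusted p 5.93e-06). Or8b55 fell by 0.47 and Or4c121 by 0.54 (limma adjusted p 0.00066 and 0.00037), and under cyclic loess neither these nor Or5b21 was called. With totals alone Or8b55 and Or4c121 were not called either (adjusted p 0.175 and 0.0822). At Or5v1b on chromosome 17, the region at chr17:37849171-37849985 held 24.97 and 19.6 RPM in CuNZ@Gel and 21.2 and 22.0 RPM in Gel, where the groups overlap (change 0.03, limma adjusted p 0.86). The other Or5v1b region, chr17:37835155-37836584, held 22.2 and 18.8 RPM in CuNZ@Gel and 15.5 and 13.6 RPM in Gel and was higher by 0.46 (limma adjusted p 0.0046), but its change was -0.54 on the background pileup scale. Without CuNZ@Gel replicate 1 its adjusted p was 0.0623 and without Gel replicate 2 it was 0.113. Of the 10 strongest receptor regions all had a peak in all 4 libraries, 8 were lower in CuNZ@Gel and 1 was higher. In the highest of 5 equal bins of level, which held 9 receptor regions, 71.3% of all regions were lower and 7.51% higher. Falls at strong regions were thus not particular to receptors.

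**Figure D4:**
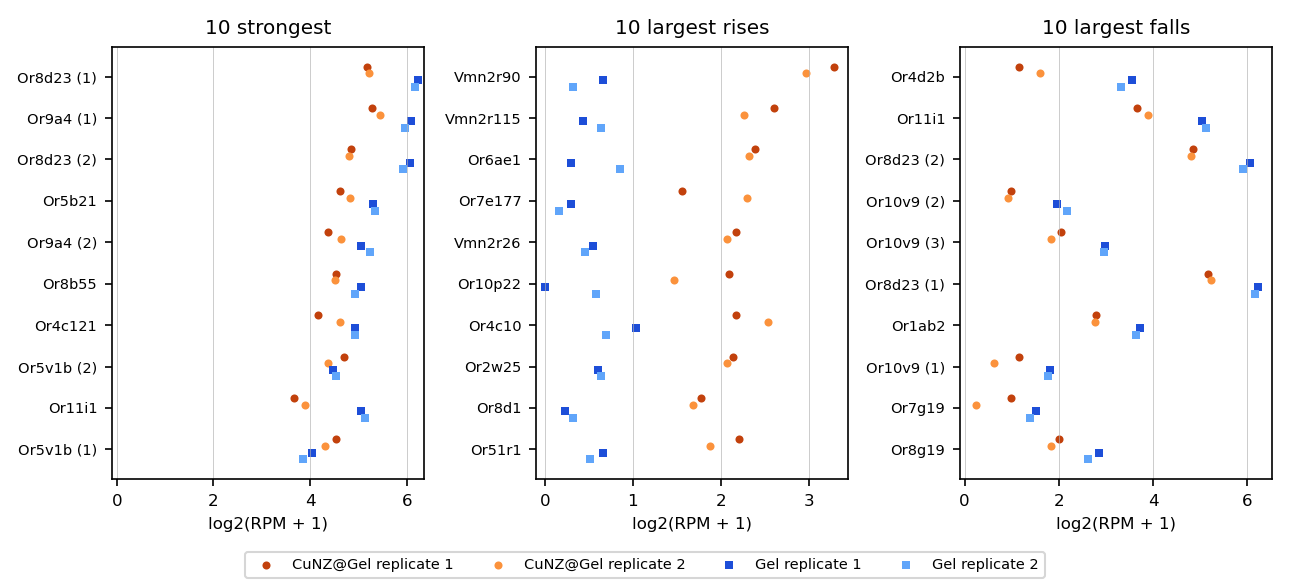
Level as log2(RPM + 1) (x axis) in each library for the 10 strongest receptor regions, the 10 largest rises and the 10 largest falls, with CuNZ@Gel as circles above Gel as squares in each row. A number in brackets ranks the regions of 1 gene by position. At the 10 rises both CuNZ@Gel circles stand right of Gel squares that lie at 1.05 RPM or less, while the falls spread over low and high levels.

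Of the 10 largest rises, 8 passed the filter through the CuNZ@Gel libraries alone, and Or6ae1 and Or4c10 through a Gel library as well. Those 8 were tested only because they were high in CuNZ@Gel, so the values of the rises are given as a description, with no test. The largest rise lay at Vmn2r90 on chromosome 17 (chr17:17984560-17984749), 1842 bases from the nearest region of Spaca6, a gene needed for sperm-egg fusion. It held 8.73 and 6.84 RPM in CuNZ@Gel and 0.583 and 0.247 RPM in Gel, from 72 and 77 reads in CuNZ@Gel and 10 and 4 reads in Gel. The Gel libraries were the deeper ones, and the part of depth in this difference was not tested. The change was 2.64 on the deposited scale, 2.43 under cyclic loess and 2.01 on the background pileup scale.

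Next came Vmn2r115, at chr17:23548197-23548758, with 5.09 and 3.82 RPM in CuNZ@Gel and 0.35 and 0.557 RPM in Gel (change 1.90). Or6ae1 on chromosome 7 had 4.25 and 4.00 RPM in CuNZ@Gel and 0.234 and 0.805 RPM in Gel (change 1.78). At both loci the lowest CuNZ@Gel value was more than 4 times the highest Gel value. Or7e177 had 1.94 and 3.91 RPM in CuNZ@Gel and 0.234 and 0.124 RPM in Gel (change 1.69), with the CuNZ@Gel libraries themselves about 2 times apart.

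Vmn2r26, whose product is known to detect peptides presented by MHC class I, had 3.52 and 3.199 RPM in CuNZ@Gel and 0.466 and 0.372 RPM in Gel at chr6:124025533-124025912 (change 1.62). Or10p22, Or4c10, Or2w25, Or8d1 and Or51r1 completed the 10, with changes between 1.45 and 1.495. Each of the 10 held at most 18 reads in either Gel library. A peak was present in 1 CuNZ@Gel library only at 8 of the 10 and in both at Vmn2r90 and Vmn2r115. Of all 44 regions called higher, 28 had peaks in CuNZ@Gel libraries alone and 11 in all 4 libraries.

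The largest fall lay at Or4d2b on chromosome 11 (chr11:87775726-87776396), 9684 bases from the nearest region of Epx, the eosinophil peroxidase gene. It held 1.21 and 2.04 RPM in CuNZ@Gel and 10.7 and 8.97 RPM in Gel, and both Gel libraries but neither CuNZ@Gel library had a peak. The change was -2.06 ± 0.23 (SE, limma adjusted p 1.92e-10). The call was the same under cyclic loess (-2.195).

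Or10v9 on chromosome 19, between regions of Stx3, a syntaxin gene, and Or10q3, had 4 regions. At chr19:11835310-11836027 it held 3.15 and 2.58 RPM in CuNZ@Gel and 6.88 and 6.74 RPM in Gel (change -1.02, limma adjusted p 0.00015). At chr19:11825413-11825650 it held 0.97 and 0.888 RPM in CuNZ@Gel and 2.92 and 3.53 RPM in Gel (change -1.13, limma adjusted p 0.001). All 3 Or10v9 regions that passed the filter were lower, each with a peak in both Gel libraries and in neither CuNZ@Gel library. Without Gel replicate 2, the adjusted p of the region at 11825413 was 0.0532, and the weakest of them, at chr19:11823726-11823957, was called in only 1 of the 4 fits that leave out a library.

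Or1ab2 on chromosome 8, 21267 bases from the nearest region of the tropomyosin gene Tpm4, held 5.94 and 5.77 RPM in CuNZ@Gel and 12.3 and 11.5 RPM in Gel (change -0.91, limma adjusted p 2.67e-05). Or7g19 had 0.97 and 0.178 RPM in CuNZ@Gel and 1.87 and 1.61 RPM in Gel (change -0.84, limma adjusted p 0.033), and lost its call without CuNZ@Gel replicate 2 (adjusted p 0.239), without Gel replicate 1 (0.211) and without Gel replicate 2 (0.126), and with totals alone (0.0826). Or8g19 had 3.03 and 2.58 RPM in CuNZ@Gel and 6.18 and 5.13 RPM in Gel (change -0.81, limma adjusted p 0.0035), and an adjusted p of 0.115 without Gel replicate 1. Of the 20 receptor regions called lower, 15 were also called lower under cyclic loess.

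Along the longest run, on chromosome 9, rises and falls stood side by side: 4 regions were higher in CuNZ@Gel and 4 lower among 21, and the run's median change was 0.15. Its summed level was 147 and 144 RPM in CuNZ@Gel and 222 and 213 RPM in Gel, most of it in the Or8d23 pair and Or8b55. The runs on chromosomes 17 and 7 were chosen for display after their values were seen. Beside H2-M3 on chromosome 17, 4 of 8 tested regions were higher and none lower (21.2% higher and 21.9% lower among all regions), and the sum over the run was 84.0 and 82.2 RPM in CuNZ@Gel and 61.5 and 59.7 RPM in Gel. There the Or1o4 region at chr17:37597662-37598009 held 9.46 and 10.4 RPM in CuNZ@Gel and 3.44 and 3.65 RPM in Gel (change 1.26, limma adjusted p 6.59e-07). The Or12d12 region had 7.40 and 10.5 RPM in CuNZ@Gel and 2.86 and 3.96 RPM in Gel (change 1.167, limma adjusted p 1.04e-05). On the background pileup scale these changes were 0.37 and 0.28 and neither was called (adjusted p 0.216 and 0.344).

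On chromosome 7, a run of 5 class I olfactory receptors, the group first known from fish, lay between Trim21, the gene of a cytosolic antibody receptor, and Trim68. It summed to 14.4 and 15.02 RPM in CuNZ@Gel and 5.13 and 5.51 RPM in Gel. Of its 4 tested regions 2 were higher: Or51r1, which passed the filter through CuNZ@Gel alone, with 3.64 and 2.67 RPM in CuNZ@Gel against 0.583 and 0.433 RPM in Gel (change 1.45), and Or52i2, with 4.73 and 7.196 RPM in CuNZ@Gel against 1.34 and 2.17 RPM in Gel (change 1.33, limma adjusted p 1.89e-05). Or52i2 was not called on the background pileup scale (0.55, adjusted p 0.077). By chromosome, with the chromosomes picked after their counts were seen, 10 of the 22 tested regions on chromosome 17 were higher and 0 lower, while on chromosome 19 1 of 12 was higher and 4 lower. Among all regions 21.2% were higher and 21.9% lower. Some of the higher regions on chromosome 17 passed the filter through CuNZ@Gel alone, among them the largest rises at Vmn2r90 and Vmn2r115. Those had to differ to be tested, so the count supports nothing. On the background pileup scale 5 regions were higher and 9 lower on chromosome 17, and 0 and 8 on chromosome 19. That scale gave 4.85% higher and 60.6% lower among all regions.

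**Figure D5:**
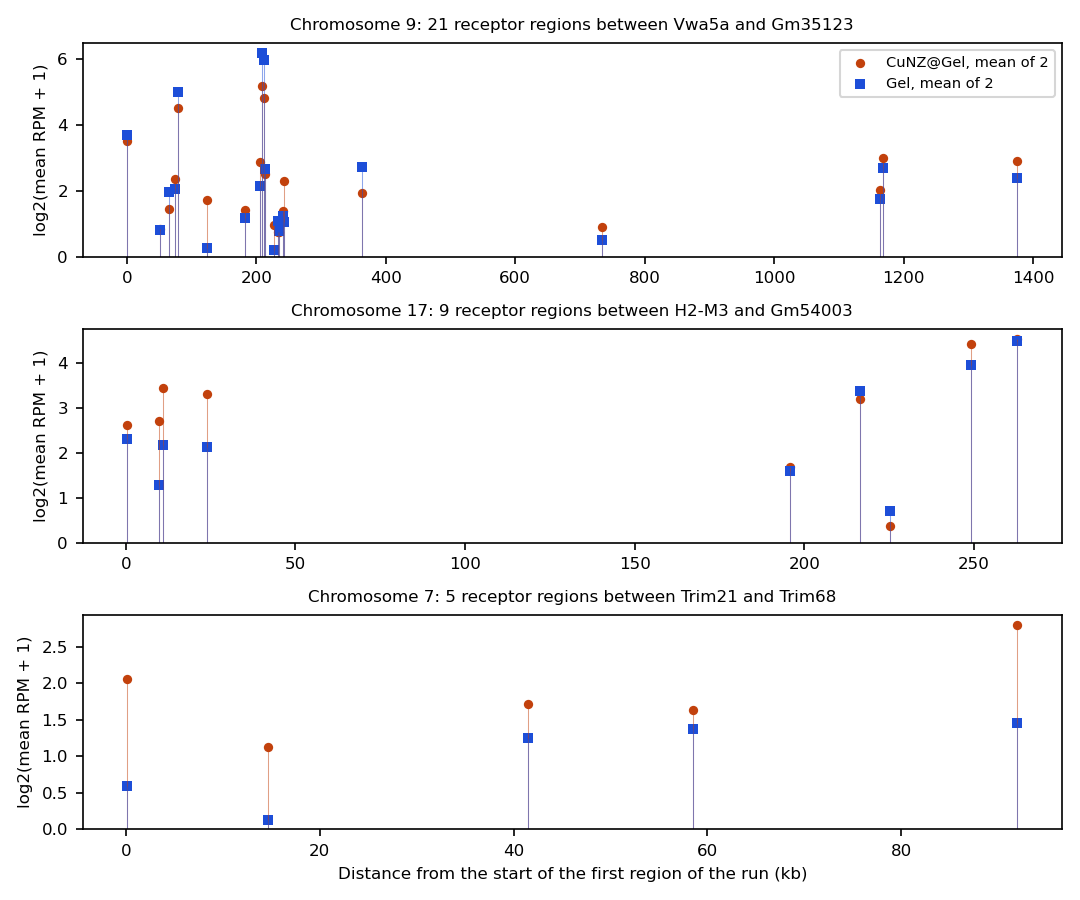
Level as log2(mean RPM + 1) (y axis) of each receptor region along 3 runs, by distance in kb from the start of the run's first region (x axis), with CuNZ@Gel means as circles and Gel means as squares (2 libraries each). On chromosome 9 the tallest regions are higher in Gel, and on chromosomes 17 and 7 most CuNZ@Gel points stand above the Gel points.

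Split by family, and beside 21.2% higher and 21.9% lower among all regions, 37 of 163 tested Or regions were higher and 18 lower (median change 0.15), 2 of 14 Vmn1r regions higher and 1 lower (median 0.00), and 5 of 25 Vmn2r regions higher and 1 lower (median 0.06). Vmn1r regions were the lowest, with a median mean log2 level of 1.15, against 1.395 for Vmn2r and 1.498 for Or regions. The 12 class I Or regions had 2 higher and 0 lower of 10 tested. The share of region reads, given without a test, was 885 ± 23.8 per 1000000 in CuNZ@Gel and 784 ± 20.8 in Gel for Or, 70.5 ± 2.62 in CuNZ@Gel and 47.2 ± 0.5 in Gel for Vmn1r, and 81.8 ± 4.03 in CuNZ@Gel and 53.7 ± 1.7 in Gel for Vmn2r (SD, n = 2 each). By position in a run, beside the same shares of all regions (21.2% higher and 21.9% lower), 10 of 58 tested regions flanked on both sides by other receptors were higher and 6 lower (median 0.14). Regions with another receptor on 1 side had 21 of 87 higher and 9 lower (median 0.10), and isolated ones 13 of 57 higher and 5 lower (median 0.02). No differences between these groups were tested.

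Summed per gene over its regions, 157 of 179 receptor genes were tested, of which 35 were higher in CuNZ@Gel and 15 lower, against 20.5% higher and 36.1% lower among 25900 genes. Together 31.8% of receptor genes and 56.7% of all genes were called. The median change was 0.12 for receptor genes and -0.10 for all genes. Some receptor genes passed the filter through the CuNZ@Gel libraries alone, such as Or4c1, Or1x2 and Vmn2r120, with 0 reads in both Gel libraries. Such genes had to differ to be tested, so the count of higher genes and the median are descriptions and support nothing. Under cyclic loess 20 receptor genes were higher and 23 lower, with 24.2% and 22.8% of all genes, and on the background pileup scale 10 were higher and 77 lower, with 2.77% and 75.5%.

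Of the receptor genes, 3 had 4 regions and 9 had 3 regions, and Or13l2 and Or1d2 were taken from those 9 as the first by name. Or8d23 summed to 70.6 and 71.6 RPM in CuNZ@Gel and 144 and 136 RPM in Gel (change -0.97, limma adjusted p 2.32e-10), and Or10v9 to 5.82 and 5.06 RPM in CuNZ@Gel and 12.3 and 12.7 RPM in Gel (change -1.07, limma adjusted p 2.82e-05). Or8d1b, next to Or8d23, had 6.67 and 7.28 RPM in CuNZ@Gel and 5.77 and 8.85 RPM in Gel, where the groups overlap (change -0.04). Or13l2 was higher, with 9.10 and 4.98 RPM in CuNZ@Gel and 3.62 and 3.899 RPM in Gel (change 0.71, limma adjusted p 0.016). Its call was lost without CuNZ@Gel replicate 1 (adjusted p 0.25), without Gel replicate 1 (0.0569) and under cyclic loess (0.0793), and its change was -0.18 on the background pileup scale. Or1d2 had 7.64 and 9.33 RPM in CuNZ@Gel and 7.29 and 6.004 RPM in Gel (change 0.31, limma adjusted p 0.17).

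The other genes of the olfactory pathway were read as nearest-gene sums, which do not place a region in a promoter. All 16 genes of olfactory signal transduction had a region, and 3 were higher and 4 lower in CuNZ@Gel, beside 20.5% higher and 36.1% lower among all genes. The highest level was at Cnga4, which encodes a subunit of the cyclic nucleotide-gated cation channel of olfactory neurons. It held 90.6 and 95.002 RPM in CuNZ@Gel and 163 and 164 RPM in Gel (change -0.81, limma adjusted p 6.34e-10). Ric8b, which encodes an exchange factor for the olfactory G protein, and Gnb1, a G protein beta subunit, fell by 0.47 and 0.62 (limma adjusted p 1.78e-06 and 3e-07). Omp, the olfactory marker protein gene, held 7.76 and 8.80 RPM in CuNZ@Gel and 18.7 and 17.02 RPM in Gel (change -1.02, limma adjusted p 9.59e-06). Pde1c, a phosphodiesterase of olfactory cilia, was higher, with 12.1 and 12.7 RPM in CuNZ@Gel and 7.29 and 6.07 RPM in Gel (change 0.81, limma adjusted p 0.00043), but its change was -0.14 on the background pileup scale.

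Of 6 vomeronasal signalling genes, 5 were tested, 0 were higher and 2 lower, beside 20.5% higher and 36.1% lower among all genes, and Gnao1 had no region. Gnai2, a G protein subunit that macrophages also express, had 159 and 155 RPM in CuNZ@Gel and 236 and 245 RPM in Gel (change -0.61, limma adjusted p 1.96e-09). Gng8 fell by 0.54 (limma adjusted p 6.3e-07), and Plcb2 had a change of 0.22 (limma adjusted p 0.06). Trpc2, the channel of vomeronasal neurons, had 0.728 and 2.13 RPM in CuNZ@Gel and 1.98 and 2.35 RPM in Gel (change -0.44, limma adjusted p 0.24).

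Among 21 genes known from the choice and silencing of olfactory receptors, 17 were tested, 2 were higher and 9 lower, beside 20.5% higher and 36.1% lower among all genes, and Lhx2, Ebf2, Emx2 and Trim28 had no region. The heterochromatin protein genes Cbx5 and Cbx3 (HP1 alpha and gamma) were lower. Cbx5 had 114 and 118 RPM in CuNZ@Gel and 206 and 193 RPM in Gel (change -0.78, limma adjusted p 5.2e-10). Cbx3 had 72.3 and 72.6 RPM in CuNZ@Gel and 147 and 152 RPM in Gel (change -1.03, limma adjusted p 6.57e-11). Atf5, a transcription factor of the feedback that fixes receptor choice, fell by 0.56 (limma adjusted p 2.3e-07). Ebf3, an Olf/EBF transcription factor gene, was higher, with 14.7 and 14.2 RPM in CuNZ@Gel and 3.62 and 4.70 RPM in Gel (change 1.59, limma adjusted p 3.97e-07), and remained called under cyclic loess (1.43) and on the background pileup scale (0.66). Kdm1a, a histone demethylase gene, was higher by 0.28 as deposited (limma adjusted p 0.029) and lower by 0.75 on the background pileup scale, and was not called without CuNZ@Gel replicate 2 (adjusted p 0.135) or without Gel replicate 1 (0.351). Under cyclic loess Ric8b, Gng8 and Atf5 were not called (adjusted p 0.38, 0.08 and 0.053). The medians of the 3 lists were -0.05, -0.44 and -0.24, beside -0.10 for all genes.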

How the data were processed

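ATAC-seq of RAW264.7 cells gave 4 libraries (2 CuNZ@Gel, 2 Gel). Per the submitters' processing notes, the build was GRCm39 and the tools, in no stated order, were MACS2 (2.2.8), Picard (2.27.5), Bowtie2 (2.3.4.3), fastp (0.23.1) and SAMtools (1.17). The authors deposited a log2 value per library for 80929 regions, and each region carries the name of the nearest gene. These were read as log2(RPM + 1), because low values in every library, once reversed, were whole multiples of 1 step (100% to within 0.1). The deposited peak lists, called per library, hold a fold (ratio) over background, the -log10 of p and q values and a score. Each fold was taken as pileup + 1 over background + 1. The background pileup used here is the value that gave whole pileups for the largest share of low folds. It was 1.168 and 1.201 in CuNZ@Gel and 1.003 and 0.962 in Gel. Merging the lists across gaps of up to 1 base gave the same 80929 regions and thus GRCm39 coordinates, printed counted from 1.

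Regions, and genes as log2 of summed RPM + 1, were compared by a two-sided limma fit (version 3.58.1, R 4.3.3) with an intensity trend on the whole table, after a filter of 0.710 reads per 1000000 region reads in at least 2 libraries and 15 reads in all. Adjustment was by Benjamini-Hochberg over 77014 regions or 25900 genes. Fold changes on this scale understate those of low values. A test for counts was planned only in case the deposited values were counts, and they are on a log2 scale. Shares of reads have exact Clopper-Pearson intervals. With n = 2 a group, no permutation test can pass 0.05, so medians and shares have no test.

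The receptors, gene lists and comparison families were chosen with earlier results of these data known. Named receptor regions are the 10 with the highest mean log2 value and the 10 largest rises and falls among called regions whose groups do not overlap. Named genes are the 5 receptors with most regions (ties taken by name), 4 receptors reported in any case and, of the other lists, the genes of highest level and the largest called change in each direction. Other named receptors were chosen after their values were seen. Alternatives covered scaling, pseudocount (0.5), voom, filters, a block for the replicate number and leaving out each library. Same-numbered libraries did not deviate together (correlation 0.02 over regions and 0.04 over genes). With 2 libraries a group this cannot show whether they were prepared together, and the main fit used no pairing. RefSeq tables (GRCm38.p6) gave names, gene order and promoters only, and all 53 vomeronasal regions lay on the chromosome the table gives.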

Additional observations from a re-analysis of the deposited data

How the results depend on the processing

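With the background pileup, receptor regions called were 15 higher and 93 lower (44 and 20 as deposited) and genes 10 and 77 (35 and 15). Median changes were -0.58 for regions and -0.62 for genes (0.10 and 0.12 as deposited). That scale called 4.85% of all regions higher and 60.6% lower, and 2.77% and 75.5% of all genes. Cyclic loess gave 26 regions higher, 20 genes higher and 23 genes lower, with medians of -0.12 and -0.16. Under it 18.8% of all regions were higher, and 24.2% of all genes higher and 22.8% lower. The medians of all regions and all genes were -0.046 and -0.033. Totals gave 12 regions and 8 genes lower, with medians of 0.27 and 0.31. With totals 11.9% of all regions and 4840 of all 25900 genes were lower. Median-of-ratios, the pseudocount of 0.5, no filter and voom gave gene medians of 0.21, 0.15, 0.18 and 0.18. The causes were not tested. Leaving out each library gave 29 to 41 regions higher, 13 to 24 lower, medians of 0.05 to 0.16, 20 to 36 genes higher, 9 to 19 lower and gene medians of 0.061 to 0.19. The lowest counts of higher calls came without Gel replicate 1. The read share ratio, CuNZ@Gel over Gel, was 1.173, between 1.149 and 1.197 without a library, and 1.22 without the region with most reads. The ratio of regions with a peak was 0.70, but 0.49 at a -log10 q of at least 5, 0.99 with equal numbers of top peaks, and 0.59 to 0.82 without a library. The median was 0.22, -0.001, -0.093 and -0.64 in level bins 1, 3, 4 and 5 of 5, and -0.069 for vomeronasal regions inside a cluster by gene order. With a peak in at least 3 libraries (added after seeing the data) 13 regions were higher and 13 lower, with 18.7% and 34.8% of all such regions.

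With the replicate number as a block, which may or may not pair these libraries, 45 regions were higher and 20 lower. Among all 77014 regions tested the block gave 16697 higher and 17273 lower. Among 414 values of 32 named regions and genes, 382 were alike in direction and call, 20 lost and 3 gained a call, and 9 changed sign. Those were Or5v1b at 37849171 (-0.98 with the background pileup, -0.13 without CuNZ@Gel replicate 1, range without a library -0.13 to 0.20), Or5v1b at 37835155 (-0.54 with the background pileup), Or13l2 (-0.18) and Or1d2 (-0.62) with the background pileup, and Or8d1b (0.076 with median-of-ratios, 0.21 with totals, and -0.30 to 0.23 without a library). Depth limits low loci: 36 of 238 receptor regions could not be tested.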
